A study of Mus musculus with 4 samples.

Results

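The genes described here encode the proteasome: 50 genes with 56 probe sets, of 19937 genes with 21640 probe sets of their own on the array, chosen because the only symbol annotated to the probe set begins with Psma to Psmg followed by a number, with pseudogene symbols left out. They comprise 48 genes of subunits, activators, an inhibitor and assembly chaperones, and 2 genes that share the pattern without encoding a subunit, Psmc3ip, a partner protein of meiotic recombination, and Psme3ip1, which encodes a protein that binds the activator PA28 gamma. RNA was measured on Mouse Gene 1.0 ST arrays from bone marrow cells of wild-type C57BL/6 mice sorted as B220+ c-Kit+ pro-B cells (low in B220 according to the methods), without a transgene, in 4 replicates that form 1 group. Age, sex and pooling of the mice were not given, and neither was whether the replicates came from separate animals, so the spread between replicates may be partly technical. Values are log2 intensities after RMA, a method that corrects background and evens out the distribution of values across arrays.

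The proteasome is the barrel-shaped protease that degrades ubiquitin-tagged proteins in the cytosol and nucleus. Its 20S core particle is built of rings of alpha and beta subunits, and the 19S regulatory particle on its ends recognises, unfolds and threads the substrate. Lymphoid cells and cells exposed to interferon gamma also make the immunoproteasome, in which the catalytic subunits Psmb9, Psmb10 and Psmb8 take the places of Psmb6, Psmb7 and Psmb5 and which favours peptides that fit MHC class I molecules.

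Markers of the sorted population were present on each array. Of 13 pro-B marker genes, 12 had a probe set of their own and all 12 were above background, but markers of other marrow cells were above background as well, 10 of 10 erythroid and 15 of 15 granulocyte and monocyte genes among them. The arrays correlated with one another at Pearson's r of 0.986 to 0.989 across probe sets, which are not independent replicates. The array of replicate 3 stood apart in Xist, the X-inactivation RNA, at a log2 value of 5.48 against 13.04 to 13.17 on the other arrays. Replicate 3 is therefore not a repeat measurement of the same RNA as the others, and the sex of the mice was not tested. Replicate 1 stood apart in the erythroid markers, where the shift, meaning the value on 1 array minus the mean of the other 3, had a median of -1.31 with 10 of 10 genes lower, while its pro-B markers were higher (median shift 0.68, 11 of 12 genes). The exception was Kit, which encodes the sort marker c-Kit and was lowest on that array at 10.46 (shift -0.36).

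Transcripts of nearly the whole proteasome were detected. Genes of odour, pheromone and taste receptors (1246 probe sets) were taken as mostly silent in these cells and served to set the background. The line of each array was their 95th percentile, a log2 value of 6.53 to 6.62. To count as above background a probe set had to pass the line of all 4 arrays. By this rule 45 of the receptor probe sets themselves passed. It held for 55 of the 56 probe sets and 49 of the 50 genes, beside 63.5% of all single-symbol probe sets. The gene that did not pass was Psmb11, the catalytic subunit of the thymoproteasome of thymic cortical epithelium, with values of 6.26, 6.69, 6.46 and 6.62 on the arrays of replicates 1 to 4. Psmb11 thus exceeded the line on 2 arrays and lay under it on those of replicates 1 and 3. Psma8, the alpha subunit known from the testis, had values of 6.66, 7.27, 7.34 and 7.28. It passed on every array, narrowly on that of replicate 1. Psmg3, a chaperone of core-particle assembly, lay low as well, at 7.14, 7.27 and 7.15 on the arrays of replicates 1, 2 and 4 and with a shift of -0.18 on that of replicate 3. When the receptor genes' 99th percentile (7.17 to 7.26) was used instead, Psma8 was above it on 3 arrays, Psmg3 on 1 and Psmb11 on 0, and 53 probe sets passed.

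**Figure D1:**
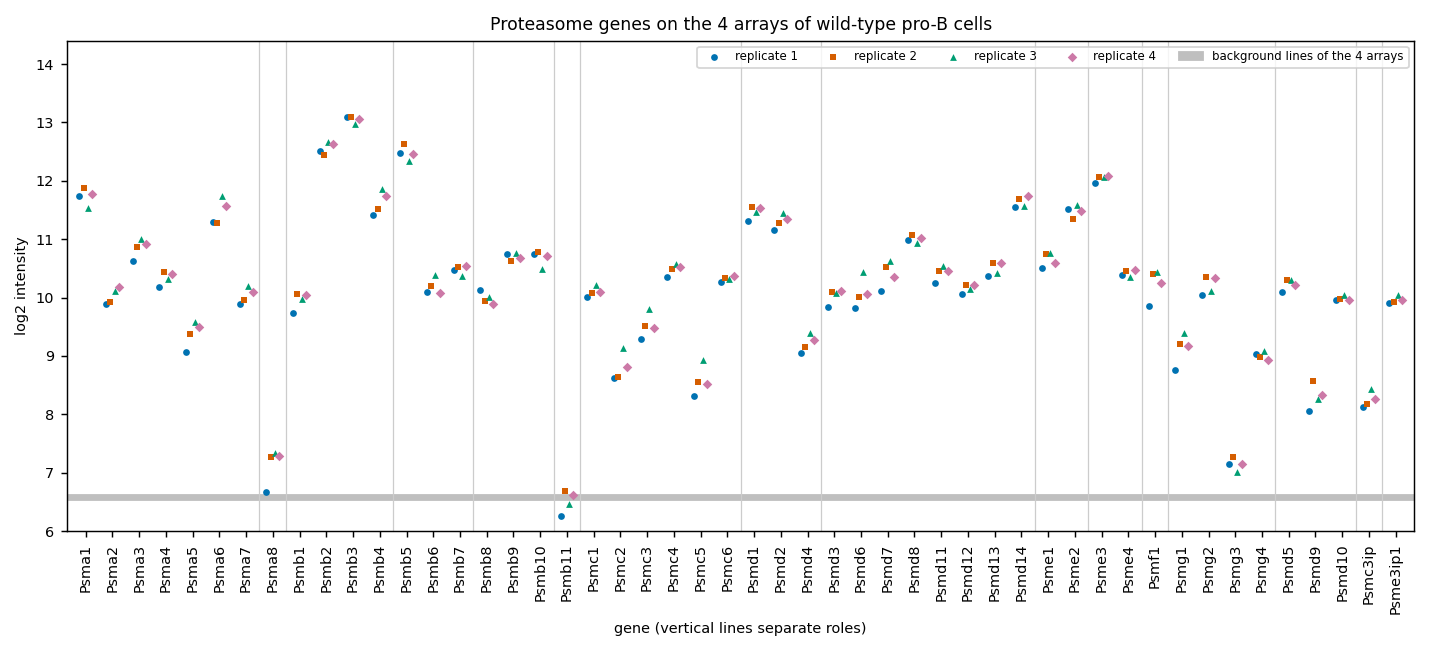
Log2 intensity (vertical axis) of the 50 genes (horizontal axis, grouped by role) on the 4 replicate arrays, 1 marker per array, with the grey band spanning the background lines of the arrays (6.53 to 6.62). Psmb11 straddles the band and Psma8 of replicate 1 lies just over it at 6.66, while the other genes lie above; heights of different genes are not comparable, since each probe set has its own response.

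The replicates differed little in most of these genes. The median SD over the 4 arrays was 0.12 log2 units for the 55 probe sets above background and 0.11 for all 13744 single-symbol probe sets above background. An SD of at least 0.2 was found for 13 of the 55, which is 12 genes, beside 15.5% of all. The count was 5 without replicate 1 and 7 without replicate 3. The share of all probe sets was not computed for these settings, so whether the fall is particular to the members is not known. The SD ran from 0.04 for Psmd10, a chaperone of 19S assembly also known as gankyrin, to 0.32 for Psma8. Psmd10 had values of 9.95, 9.98, 10.04 and 9.96, and Psmc6, an ATPase of the 19S base, had 10.27, 10.34, 10.31 and 10.36 (SD 0.04). These were the steadiest of the genes across the arrays. A single array standing far from the others, by Dixon's ratio of gap to range, was found for 2 of the 55 probe sets, beside 5.36% of all.

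The differences that did occur ran mostly in 1 direction on the array of replicate 1. The 31 standard genes, meaning the alpha and constitutive beta subunits of the core with the ATPase and non-ATPase subunits of the 19S particle, had there a median shift of -0.20, and 29 of 31 were lower. On the arrays of replicates 2, 3 and 4 the median shifts were 0.02, 0.13 and 0.07, with 13, 11 and 7 of the 31 lower. The value for replicate 2 was -0.04 without replicate 1 and 0.07 without replicate 3, and that for replicate 4 was 0.02 and 0.11. Over all 55 probe sets above background, 47 were lower on the array of replicate 1, beside 47.9% of all single-symbol probe sets above background. The numbers lower on those of replicates 2, 3 and 4 were 22, 17 and 14, beside 50.7%, 47.8% and 54.1% of all. Replicate 1 gave the lowest of the 4 values for 38 of the 55 (28.9% of all), and replicate 3 the highest for 32 (23.2% of all). Over all single-symbol probe sets above background the median shifts were 0.0099, -0.0024, 0.0075 and -0.0147. The median was near -0.20 in each role of the standard particle apart from the constitutive catalytic subunits, where it was -0.02. After normalization by quantiles, median centring or cyclic loess, 46, 49 and 46 of the 55 were lower on that array, beside 52.4%, 55.2% and 51.7% of all.

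Erythroid and B-lineage markers moved on the same array. Beside the -0.20 of the standard genes, the erythroid markers shifted by -1.31 and the pro-B and pre-B markers by 0.68 and 0.56 (10 of 10 lower, 11 of 12 and 5 of 6 higher), while the 6 housekeeping genes shifted by -0.03 and the granulocyte and monocyte markers by -0.05. On the array of replicate 3, where the standard genes shifted by 0.13, the erythroid markers shifted by 0.38 (10 of 10 higher) and the granulocyte and monocyte markers by 0.20 (12 of 15 higher). The pro-B and pre-B markers shifted by 0.14 and 0.09 there, the same way as the standard genes. On that of replicate 2 the erythroid shift was 0.66, and that of the standard genes was 0.02. The granulocyte and monocyte markers shifted by -0.36 there (13 of 15 lower). The pro-B and pre-B markers shifted by -0.30 (10 of 12 lower) and -0.01. On the array of replicate 4, with the standard genes at 0.07, the erythroid markers shifted by 0.32. The granulocyte and monocyte markers shifted by 0.27 there (12 of 15 higher), and the pro-B and pre-B markers by -0.56 and -0.67. The part of these markers in the proteasome shifts was not tested, and in bulk RNA a change in the cells present cannot be told apart from a change of RNA per cell.

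**Figure D2:**
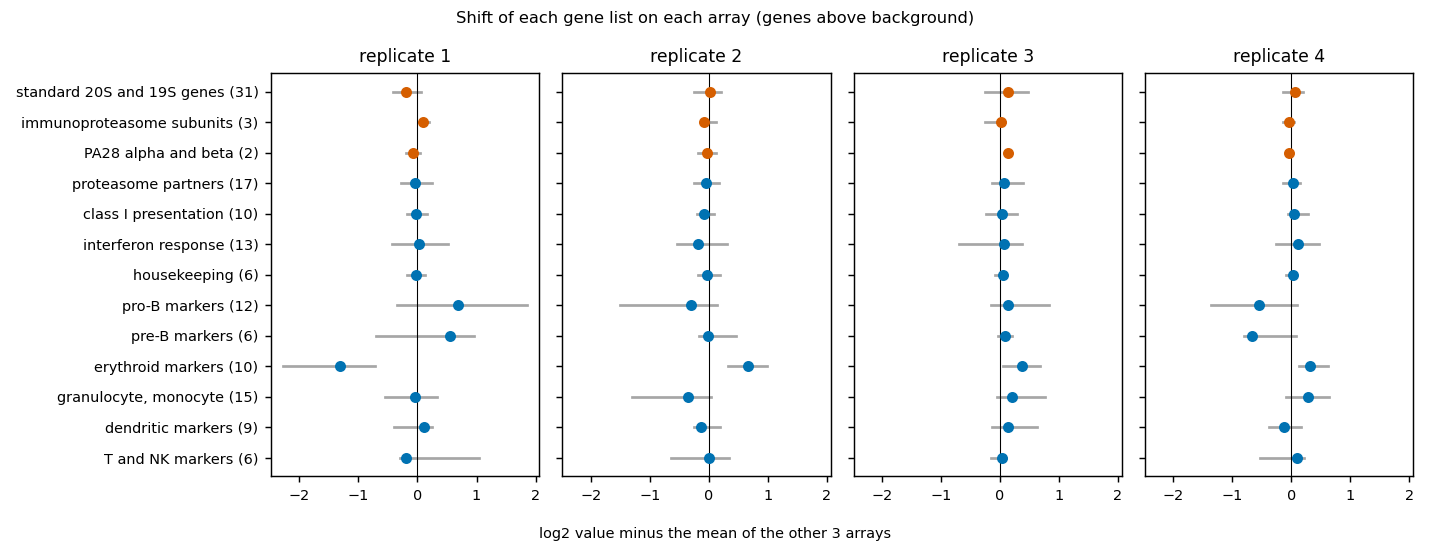
Median (points) and range (grey lines) over genes above background of the log2 value on 1 array minus the mean of the other 3 (horizontal axis), for proteasome groups (orange) and other gene lists (blue, number of genes in brackets), 1 panel per replicate array. The standard genes lie at -0.20 on the array of replicate 1, beside -1.31 for the erythroid and 0.68 for the pro-B markers.

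The alpha ring forms the gate of the core particle. Of its 7 standard subunits Psma1 to Psma7, 6 were lower on the array of replicate 1, with a median shift of -0.20. Psma5 had values of 9.07, 9.37, 9.57 and 9.50, lowest on that array (SD 0.22). Psma6, at 11.29, 11.28, 11.74 and 11.58, was low on the arrays of replicates 1 and 2 and high on those of replicates 3 and 4. Psma1 went another way, at 11.74, 11.87, 11.53 and 11.77, and was lowest on the array of replicate 3. Psma2, Psma3, Psma4 and Psma7 had SDs of 0.14, 0.16, 0.11 and 0.14. Psma8 had the largest shift of the member genes above background on the array of replicate 1, -0.64, although its 6.66 there lies close to the background line.

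Beta subunits that lack catalytic activity in the mammalian core behaved unevenly. Psmb4 had values of 11.41, 11.51, 11.86 and 11.74, again high on the arrays of replicates 3 and 4 (SD 0.21). Psmb1 was lowest on the array of replicate 1, at 9.73 against 9.98 to 10.07 on the others. Psmb2 and Psmb3 stayed within 12.45 to 12.66 and 12.97 to 13.10.

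Each of the 3 constitutive catalytic subunits has an immunoproteasome counterpart, and the pairs were set side by side. All 6 were above background on all arrays. Psmb5, of chymotrypsin-like activity, had log2 values of 12.47, 12.62, 12.34 and 12.46, or 12.47 ± 0.11 (SD, n = 4). Its counterpart Psmb8, also known as LMP7, had 10.14, 9.93, 10.01 and 9.89, or 9.99 ± 0.11 (SD, n = 4). Psmb8 was highest on the array of replicate 1 and Psmb5 on that of replicate 2. Psmb6, of caspase-like activity, had 10.10, 10.21, 10.38 and 10.09, or 10.19 ± 0.14 (SD, n = 4). Psmb9, or LMP2, which replaces it, had 10.75, 10.63, 10.77 and 10.68, or 10.71 ± 0.07 (SD, n = 4). Both were highest on the array of replicate 3, and Psmb9 varied within 0.14 log2 units. Psmb7, of trypsin-like activity, had 10.47, 10.53, 10.37 and 10.55, or 10.48 ± 0.08 (SD, n = 4). Psmb10, also called MECL-1, had 10.75, 10.78, 10.50 and 10.71, or 10.68 ± 0.13 (SD, n = 4). Both were lowest on the array of replicate 3. The intensities of 2 different probe sets do not rank the amounts of their transcripts, so whether these cells held more of the constitutive or of the immunoproteasome RNA cannot be read from them.

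The change between arrays within a pair can be read. The difference of Psmb8 and Psmb5 deviated from its mean on the other arrays by 0.20, -0.28, 0.20 and -0.12 log2 units on replicates 1 to 4. For Psmb9 and Psmb6 the deviations were 0.18, -0.12, -0.17 and 0.11, and for Psmb10 and Psmb7 they were 0.10, 0.06, -0.11 and -0.05. All 3 pairs had their highest difference on the array of replicate 1, towards the immunoproteasome subunit, and the median over the pairs there was 0.18. For Psmb8 and Psmb5 the array of replicate 3 was nearly level with it (deviations of 0.199 and 0.196). On the other arrays the pairs did not share a direction. The immunoproteasome subunits were higher on that array (shifts of 0.19, 0.06 and 0.09 for Psmb8, Psmb9 and Psmb10). The constitutive ones were level or lower (-0.01, -0.13 and -0.02 for Psmb5, Psmb6 and Psmb7). The deviation thus lay mostly on the immunoproteasome side for Psmb8 and Psmb10, and mostly on the constitutive side for the pair of Psmb9 and Psmb6. Across arrays the SD of the difference was 0.18, 0.13 and 0.07 for the 3 pairs, taken over all 4 arrays. By Dixon's ratio no array stood apart in any pair, which was 0.327, 0.226 and 0.294 for the 3 pairs and under the 95% critical value for 4 arrays in each.

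**Figure D3:**
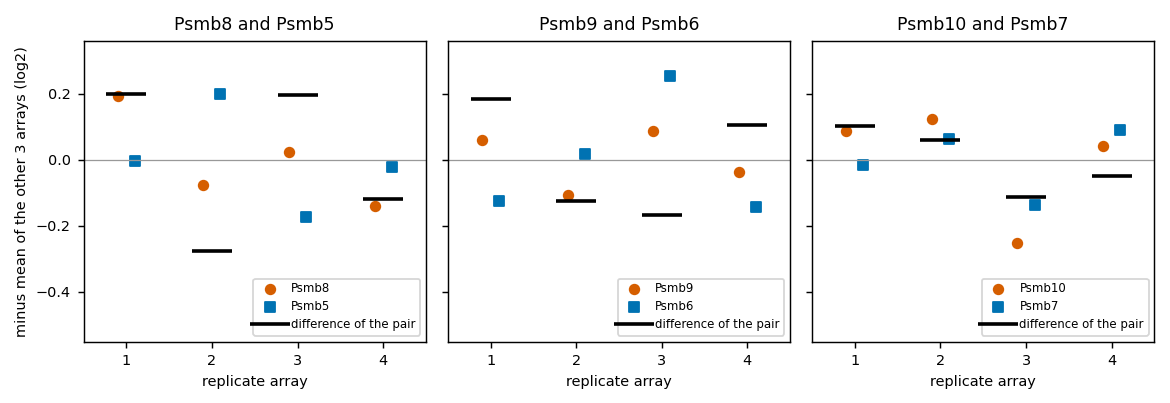
Log2 value on 1 array minus the mean of the other 3 (vertical axis) for each immunoproteasome subunit (circles) and its constitutive counterpart (squares), and the same for their difference (black bars), on the 4 replicate arrays (horizontal axis). The difference is highest on the array of replicate 1 in each pair, at 0.20, 0.18 and 0.10, and the pairs diverge on that of replicate 3. For Psmb8 and Psmb5 the arrays of replicates 1 and 3 are nearly level.

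The sequences before the start of these catalytic genes are shown because regulators are known for them: the Nrf factors, which act through antioxidant response elements in genes of the standard proteasome, and interferon regulatory factors, which act on the immunoproteasome genes. The 250 bases before the start are given, 5′ to 3′ on the strand of the gene, from RefSeq on build GRCm38.p6, at chr14:54617996-54618245 (minus strand) for Psmb5, chr11:70525107-70525356 (plus) for Psmb6, chr17:34197945-34198194 (plus) for Psmb8, chr17:34187331-34187580 (minus) for Psmb9 and chr8:105938393-105938642 (minus) for Psmb10. Capitals mark the core TGACNNNGC of the antioxidant response element in Psmb5 and Psmb6 and a CCAAT box in Psmb9, on its other strand. In these sequences no marked match overlaps another, and for Psmb7 none is shown.
Psmb5: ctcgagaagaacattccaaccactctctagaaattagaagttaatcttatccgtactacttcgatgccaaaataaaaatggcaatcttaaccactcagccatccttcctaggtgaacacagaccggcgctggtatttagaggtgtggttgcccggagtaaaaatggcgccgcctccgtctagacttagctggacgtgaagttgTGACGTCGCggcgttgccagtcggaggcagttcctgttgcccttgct
Psmb6: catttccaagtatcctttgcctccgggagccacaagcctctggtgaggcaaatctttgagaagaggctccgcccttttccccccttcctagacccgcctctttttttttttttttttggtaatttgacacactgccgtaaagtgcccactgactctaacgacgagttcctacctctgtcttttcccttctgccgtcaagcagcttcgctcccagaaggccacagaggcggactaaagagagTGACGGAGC
Psmb8: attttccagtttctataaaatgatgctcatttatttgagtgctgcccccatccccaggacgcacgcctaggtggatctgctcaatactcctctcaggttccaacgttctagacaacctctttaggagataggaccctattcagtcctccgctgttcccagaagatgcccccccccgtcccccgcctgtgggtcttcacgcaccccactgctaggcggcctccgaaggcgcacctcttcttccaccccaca
Psmb9: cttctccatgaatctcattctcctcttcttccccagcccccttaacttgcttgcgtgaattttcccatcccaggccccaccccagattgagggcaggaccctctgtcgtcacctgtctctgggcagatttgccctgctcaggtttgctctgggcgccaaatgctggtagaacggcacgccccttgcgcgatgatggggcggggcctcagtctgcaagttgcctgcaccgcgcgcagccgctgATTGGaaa
Psmb10: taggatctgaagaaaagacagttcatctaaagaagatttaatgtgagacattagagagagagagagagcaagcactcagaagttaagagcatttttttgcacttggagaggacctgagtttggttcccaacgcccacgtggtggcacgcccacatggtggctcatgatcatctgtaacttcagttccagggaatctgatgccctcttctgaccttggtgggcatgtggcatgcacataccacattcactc

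The antioxidant response element core, searched on both strands, lay in the 250 bases of 5 of the 42 member genes that the promoter table holds: Psmb5, Psmb6, Psmc6, Psmd9 and Psmd12. That is 5 of their 46 promoters, beside 10.2% of 32851 mouse promoters of the same length. The letters GAAANNGAA of the interferon-stimulated response element lay in the promoters of Psmb3, Psmd4 and Psmd9 (3 of 46, beside 7.13% of all) and in none of the windows of Psmb8, Psmb9 and Psmb10. A CCAAT box lay in 16 of the 46, beside 33.9% of all. A match is a description of letters, and its absence says only that those letters are not in this window.

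The 19S ATPases, which unfold the substrate and open the gate, were lower on the array of replicate 1 in 6 of 6 cases and each lowest there, with a median shift of -0.21. Several of them had the same arrays at both ends. Psmc2 had values of 8.62, 8.63, 9.14 and 8.81. Psmc3 had 9.29, 9.51, 9.81 and 9.48. Psmc5 had 8.31, 8.55, 8.93 and 8.52. In each of these 3 the array of replicate 3 was the highest, with shifts of 0.45, 0.38 and 0.47. Psmc1 and Psmc4 showed the same ends in a narrower span, from 10.01 to 10.21 and from 10.36 to 10.57.

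In the 19S base, Psmd1 and Psmd2, its large scaffold subunits, and Psmd4, a ubiquitin receptor, were also lowest on the array of replicate 1, with shifts of -0.21, -0.20 and -0.23. The lid, which carries the deubiquitinase, was lower there in 8 of 8 subunits, Psmd3, Psmd6, Psmd7, Psmd8, Psmd11, Psmd12, Psmd13 and Psmd14 (median shift -0.20). Psmd7, the partner of the deubiquitinase, had values of 10.12, 10.53, 10.63 and 10.35 (SD 0.22). Psmd6 had 9.81, 10.00, 10.43 and 10.07, high on the array of replicate 3 by 0.47 (SD 0.26, the largest among the standard genes). Psmd14, the deubiquitinase itself, stayed within 11.55 to 11.74, and Psmd8 within 10.93 to 11.07. The shifts on the array of replicate 3 were split in the lid, with 4 of 8 lower.

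Activators and the inhibitor replace or compete with the 19S particle. Psme1 and Psme2, the PA28 alpha and beta subunits that interferon gamma induces, had values of 10.50, 10.74, 10.76 and 10.59 and of 11.51, 11.34, 11.58 and 11.49. The 2 subunits of this complex moved apart on the array of replicate 2, Psme1 by 0.13 and Psme2 by -0.19. They also did so on that of replicate 1, Psme1 by -0.19 and Psme2 by 0.04. Both were highest on that of replicate 3. Psme3, the nuclear PA28 gamma, and Psme4, the activator PA200, were steady at 11.97 to 12.09 and 10.36 to 10.47. Psmf1, which encodes the inhibitor PI31, had 9.86, 10.41, 10.44 and 10.26. Its shift of -0.51 on the array of replicate 1 was larger than that of any subunit of the standard particle.

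Assembly chaperones varied one by one. Psmg1, which starts the alpha ring together with Psmg2, had values of 8.75, 9.21, 9.40 and 9.16, lowest on the array of replicate 1 by 0.50. Psmg2 had 10.04, 10.36, 10.11 and 10.33, and so was low on the arrays of replicates 1 and 3. Psmg4 had 9.04, 8.98, 9.09 and 8.93. Of the chaperones of the 19S base, Psmd9 had 8.06, 8.57, 8.26 and 8.33, highest on the array of replicate 2, and Psmd5 stayed within 10.10 to 10.31. Among the 48 genes of the proteasome, 47 were above background, of which 40 were lower on the array of replicate 1. The 7 others were Psma1, Psmb3, Psmb8, Psmb9, Psmb10, Psme2 and Psmg4, with shifts from 0.01 to 0.19. The genes outside the complex, Psmc3ip (8.12, 8.17, 8.43 and 8.26) and Psme3ip1 (9.91, 9.92, 10.04 and 9.97), were lowest on the array of replicate 1 too.

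**Figure D4:**
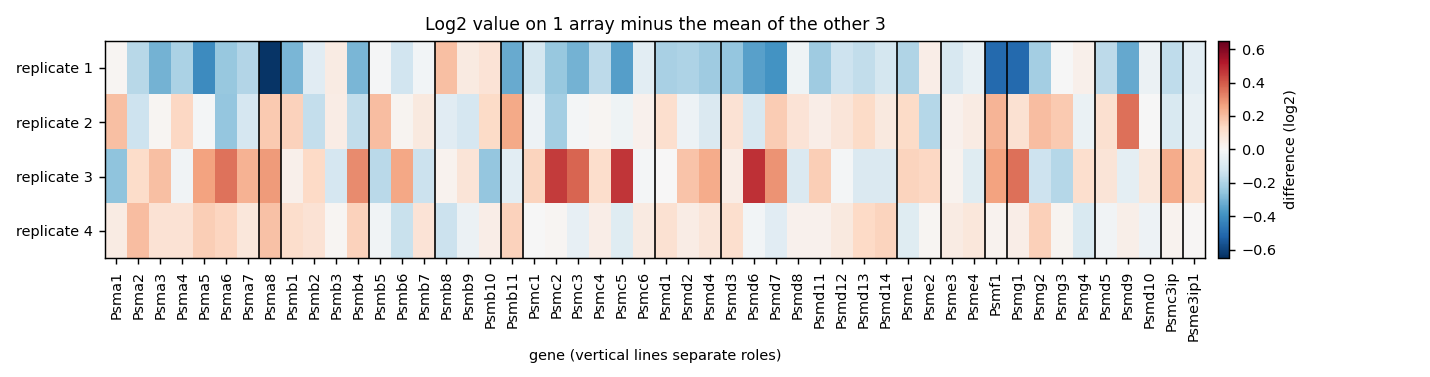
Log2 value on 1 array minus the mean of the other 3 (colour, blue lower and red higher) for the 50 genes (columns, grouped by role) on the 4 replicate arrays (rows). The row of replicate 1 is mostly blue, down to -0.64 for Psma8 and with Psmb8 at 0.19, and the row of replicate 3 holds the highest values, 0.47 for Psmc5 and Psmd6.

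Several genes carried more than 1 probe set, 5 genes with 11 in all, which list the same first transcript. Their shifts had the same sign in all probe sets of the gene for 15 of 20 combinations of gene and array, and for 5 of 5 on the array of replicate 1. The 3 probe sets of Psma3 shifted by -0.31, -0.12 and -0.23 there, those of Psma5 by -0.41 and -0.46, those of Psmc1 by -0.11 and -0.14, those of Psmd2 by -0.20 and -0.24, and those of Psmb3 by 0.05 and 0.03. Probe sets of 1 gene differed in shift by at most 0.29, which is as large as most of the shifts described here.

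Partners of the proteasome whose symbols do not follow the name pattern were listed as well. Of 21 such genes, 17 had a probe set of their own and all 17 were above background; 11 were lower on the array of replicate 1, with a median shift of -0.04. Usp14, a deubiquitinase on the 19S particle, had values of 10.68, 10.88, 10.85 and 10.94, and Uchl5, another, had 10.04, 10.03, 10.13 and 10.20. Pomp, the maturation factor of the core, had 9.81, 9.76, 9.91 and 9.86. Among this list Sem1, a small 19S subunit, and Txnl1, a thioredoxin-like protein of the 19S particle, spread the most, with SDs of 0.21 and 0.15. Nfe2l1, which encodes Nrf1, the transcription factor that raises proteasome genes when activity is short, stayed within 9.85 to 9.89 (SD 0.02), and Nfe2l2 within 11.22 to 11.32. Adrm1 and Ddi2 of this list have no probe set of their own. Whether the partners differ from the subunits was not tested.

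Class I presentation genes, which use the peptides that the immunoproteasome makes, varied little between the arrays. Of 12 listed, H2-K1 and H2-D1 among those without one, 10 had a probe set of their own and all 10 were above background, with median shifts of -0.02, -0.07, 0.03 and 0.05. B2m, the light chain of class I molecules, had values of 13.59, 13.63, 13.65 and 13.66. Tapbp, or tapasin, had 11.14, 11.06, 11.26 and 11.10. Tap2, a subunit of the peptide transporter, was highest on the array of replicate 3 at 9.48 against 9.14 to 9.26. Nlrc5, the transactivator of class I and immunoproteasome genes, stayed within 9.99 to 10.14 in the brightest of its 19 probe sets. Pdia3, an oxidoreductase of the peptide-loading complex, had 12.20, 12.16, 12.35 and 12.51 and the largest SD of the list, 0.16. Of the interferon response list, 13 of 16 genes had a probe set of their own and all 13 were above background. Their median shifts on the arrays of replicates 1 to 4 were 0.03, -0.18, 0.07 and 0.12. On these arrays 6, 10, 5 and 6 of the 13 were lower, so the list did not move as 1 on the array of replicate 1. Irf1, a factor that activates Psmb9, had values of 9.78, 9.47, 9.76 and 9.41, high on the arrays of replicates 1 and 3. The interferon-induced genes Mx1 and Oas1a spread more, with SDs of 0.32 and 0.39, and in opposite ways on the array of replicate 3 (shifts of 0.38 and -0.69).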

How the data were processed

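Each deposited value is a log2 intensity of 1 probe set, which the authors made with RMA (version and genome build not given in the sources used here). They also name a filter on low-expression probe sets without its threshold, and do not say which arrays were normalized together. The whole table of 34760 probe sets was read. Of these, 21640 have 1 symbol in the platform's annotation, 1321 several and 11799 none listed; only the first were named. All 50 member genes were found in the RefSeq gene table by their Entrez number, under the same symbol. A probe set shared by Psme2 and Psme2b was left out, as it lists both. Columns were matched by sample name, and 0 were left without a sample.

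A gene with several probe sets is given by the one with the highest mean. The shift is the value on 1 array minus the mean of the other 3. With 1 group of samples there was no group to test against. Counts of members in the main setting stand beside the same share over all single-symbol probe sets. The members and lists were chosen with earlier results of these data known. Named genes were all members, a fixed set of genes of the pathway lists and, in each other list, the 2 with the largest SD. Those of the marker and housekeeping lists are printed only where an array stood apart. Kit, outside this set, is printed in addition as a sort marker. Markers were taken from 6 cell-type lists, and T and NK (6 of 8 above background), dendritic (9 of 9) and pre-B markers (6 of 6) are shown in the plot of list medians. One-sided detection used limma 3.58.1 in R 4.3.3, with Benjamini-Hochberg adjustment over all probe sets at a threshold of 0.05. Other steps used Python 3.11.15, numpy 2.4.6, pandas 2.3.3 and matplotlib 3.10.9. Detection, spread and shift were tested on simulated data. The number of arrays limits the precision.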

Additional observations from a re-analysis of the deposited data

Results flagged for a closer look

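Of the 56 probe sets, 2 had 1 array far from the others by Dixon's ratio, both low on the array of replicate 1; over all single-symbol probe sets above background the share was 5.36%, and chance gives about 1 in 20. Psma8 was at a log2 value of 6.66 there, against a mean of 7.30 on the other arrays. The dimmer probe set of Psmd2 was at 11.13 against 11.36, while the brighter one did not stand apart. Among 30 named genes of the other lists 3 stood apart: Slc4a1, the red-cell anion exchanger, at 8.52 on the array of replicate 1 (10.79 on the others), Rhd, of the red-cell membrane, at 8.41 on the same array (10.26), and Ltf, which encodes lactoferrin, at 9.50 on that of replicate 2 (10.81). All 3 were named for their large SD. Kit, outside these 30 and printed as a sort marker, also stood apart by this ratio (0.927), low on the array of replicate 1. Other genes of the lists that were not named are not counted here. Causes were not tested.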

How the results depend on the processing

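No paired analysis was possible because the 4 arrays are 1 group with nothing to pair. The count of probe sets with an SD of at least 0.2 was 5 to 14 on leaving out 1 replicate at a time. It was 5 without replicate 1, 7 without replicate 3 and 12 to 14 under the other alternatives. The share of all probe sets was not computed beside these counts. No other result moved by more than its tolerance (the SD of the group's value over the arrays, 1.5 times for counts, the interquartile range over probe sets for the median SD). Probe sets above background numbered 53 to 56 over all alternatives, 55 of them by the one-sided limma test. The median SD was 0.0937 to 0.140, lowest without replicate 1. On the array of replicate 1 the median shift of the standard genes was -0.24 to -0.16 and the deviation of the catalytic pairs 0.14 to 0.18. The PA28 shift there was -0.11 to -0.03, a median of Psme1 and Psme2, which had opposite signs in the main setting. On that of replicate 3 the standard genes were at 0.09 to 0.18, and on that of replicate 4 at 0.02 (without replicate 1) to 0.11 (without replicate 3). Small medians changed sign within their tolerance, those of the standard genes on the array of replicate 2 (-0.04 to 0.07) and of PA28 on those of replicates 2 (-0.06 to 0.02) and 4 (-0.07 to 0.01). The counts of probe sets lower (44 to 49) and lowest (38 to 43) on the array of replicate 1 were recomputed under alternatives added after the data were seen. Median centring moved the share of all probe sets lower on that array from 47.9% to 55.2%. The share of all probe sets lowest there rose from 28.9% to 35.3% with median centring, where 41 members were lowest, and to 36.3% without replicate 2, also with 41. Shifts of this size lie near what 4 arrays resolve, and signals near the background line, as for Psma8, are the least certain.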

Other observations

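Some of the immunoproteasome genes lie in the MHC region of chromosome 17. Tap1 lies between Psmb8 and Psmb9, with 0 protein-coding genes between it and either in the RefSeq gene table of GRCm38.p6, and Tap1 and Psmb9 are known to share a promoter region in opposite directions. Tap1 had log2 values of 10.54, 10.48, 10.24 and 10.46 on the arrays of replicates 1 to 4, lowest on that of replicate 3 (shift -0.25), where Psmb9 was at its highest (0.09). Psme1 and Psme2 lie close together on chromosome 14 with 1 coding gene between them. Psmb5 and Psmb11 are direct neighbours on the same chromosome, and of this pair Psmb5 was above background on all arrays and Psmb11 on 2.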
